A study of Arabidopsis thaliana with 6 samples.

Results

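Glutathione S-transferase (GST) genes were examined in vegetative rosettes of Arabidopsis thaliana, accession Col-0, that were watered or dried to a relative water content of 65%. All genes named GSTU, GSTF, GSTL, GSTZ or GSTT followed by a number were taken, except GSTF12, each through a probe set annotated to that gene alone. This gave 14 of the 48 such genes in the gene table: 11 of 28 in the tau class (GSTU), 2 of 12 in the phi class (GSTF) and 1 of 3 in the lambda class (GSTL). The 3 theta and 2 zeta genes and the other 29 genes had no single-gene probe set in the annotation used here and were not analysed here. The 14 genes stand among 13513 probe sets with 1 gene. Treatment started at 4 weeks of age. Control plants continued to receive water, and water was withheld from the water deficit plants. RNA was hybridised to Affymetrix ATH1 arrays, 3 per group, 1 for each independent replicate.

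GSTs join the tripeptide glutathione to reactive compounds, which marks them for transport into the vacuole, and several also act as peroxidases or carry ligands. The tau and phi classes are the large plant classes, known for the detoxification of herbicides and for their induction by stress and hormones. They use a serine at the active site. The lambda class uses a cysteine and acts as a thiol transferase. Many of the genes lie in tandem on the chromosomes. A rosette holds many cell types, so fewer cells of a type and less transcript per cell cannot be told apart in these samples.

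The arrays differed in brightness, with median deposited signals between 12.6 and 51.6, and replicate 1 was the dimmest of each group. Signals were therefore quantile normalized. A floor of 18.5 normalized units (4.21 on the log2 scale), the highest value of 27 control probe sets for Bacillus transcripts, stood for background, and genes above it on 3 or more of the 6 arrays entered the test. The median log2 fold change of all 13703 tested probe sets was 0.04. Of the 17 genes listed as leaf mesophyll markers, 7 had a probe set. All 7 were lower under water deficit (limma adjusted p between 0.000259 and 0.0282), as were 23.0% of all tested probe sets. Their summed signal ran from 31200 to 37200 on watered arrays and from 13900 to 19900 on water deficit arrays. None of the 7 was at the floor on any array, and LHCB4.3 came closest to it under water deficit. Their part in the changes of the GST genes was not tested. The root, flower, pollen, seed and phloem companion cell markers had no single-gene probe set here.

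The comparison of water deficit with watered rosettes asked which GST transcripts rise or fall as the leaves lose water. GSTU27, GSTU20 and GSTU18 were lower under water deficit by 4.77-fold, 2.46-fold and 2.19-fold, and GSTU16 was 2.03-fold higher, all of them tau class genes. GSTL3 and GSTU26 did not pass the test. The remaining 8 genes were near background in both groups. A change was called at a limma adjusted p under 0.05, which 4 of the 6 tested genes reached (66.7%, against 44.9% of all tested probe sets). Of the 6, 1 was called higher (16.7%, against 21.8% of all tested probe sets) and 3 were called lower (50%, against 23.0%). All 4 changed by 2-fold or more, a size at which 13.0% of all tested probe sets rose and 15.0% fell. The groups did not overlap at 4 of the 6, against 56.4% of all tested probe sets. With 6 genes these shares are a description of the family as measured here. The median log2 fold change of the 6 was -0.45. Of these genes, 5 exceeded the floor on all 6 arrays, and none passed the filter through 1 group alone.

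**Figure D1:**
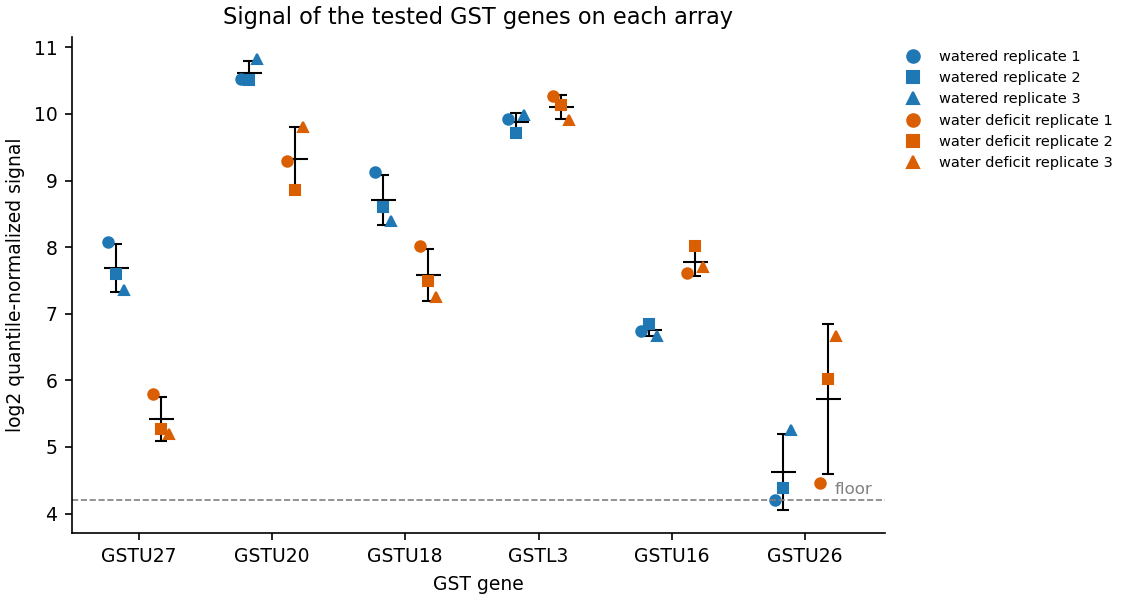
Log2 quantile-normalized signal of the 6 tested GST genes on each of 3 watered and 3 water deficit arrays, with points for arrays, bars for the mean and SD, and a dashed line at the floor of 4.21. The groups are apart for GSTU27, GSTU20, GSTU18 and GSTU16 and overlap for GSTL3 and GSTU26.

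Among the genes that fell, GSTU27 (AT3G43800) changed most. Its normalized signal was 269, 193 and 164 in watered replicates 1, 2 and 3 and 55.8, 38.6 and 36.6 in the water deficit replicates. Every water deficit array lay below every watered one, and all 6 lay above the floor. Its log2 fold change was -2.25, with a standard error of 0.26 over 3 arrays per group (limma adjusted p = 0.000335), and 3.2% of the tested probe sets had a lower value. Within the pairs of equal replicate number the log2 differences were -2.27, -2.32 and -2.17. Replicate 1 was the highest and replicate 3 the lowest array in each group, so the spread within groups was shared by the pairs. Among all probe sets of an array, which no scaling of that array can alter, GSTU27 stood at the 79.3rd to 86.2nd percentile when watered and at the 51.7th to 59.1st under water deficit.

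GSTU20 (AT1G78370) is known to bind FIN219, the enzyme that conjugates jasmonate to isoleucine, and is also called FIP1. Its normalized signal was 1480, 1460 and 1800 in the watered and 626, 464 and 898 in the water deficit replicates. The groups did not overlap, and the water deficit arrays were more spread (SD 0.48 on the log2 scale, against 0.17). The log2 fold change was -1.30 ± 0.26 (SE of 3 arrays per group; limma, adjusted p = 0.00511). The pair differences were -1.24, -1.65 and -1.01. GSTU20 remained well above background under water deficit, between the 91.8th and 96th percentile of each array, where it had been between the 97.9th and 98.5th.

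GSTU18 (AT1G10360) is the neighbour of GSTU17, a gene also known as ERD9 (EARLY-RESPONSIVE TO DEHYDRATION 9), which was not analysed here. GSTU18 gave normalized signals of 561, 388 and 337 in the watered and 257, 180 and 152 in the water deficit replicates. The highest water deficit array lay below the lowest watered one. GSTU18 thus fell by 1.13 ± 0.27 on the log2 scale (SE of 3 arrays per group; limma, adjusted p = 0.0114), and the pair differences of -1.12, -1.11 and -1.15 were nearly equal. The call was lost without water deficit replicate 2 (log2 fold change -1.09, adjusted p = 0.0503) or 3 (-0.97, adjusted p = 0.0511). As for GSTU27, replicate 1 was the highest and replicate 3 the lowest array of each group.

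GSTU16 (AT1G59700) was the one tested GST gene called higher. Its normalized signal was 107, 114 and 102 in the watered replicates, a narrow range, and 195, 257 and 207 in the water deficit replicates. The groups were apart, with a log2 fold change of 1.02 ± 0.18 (SE of 3 arrays per group; limma, adjusted p = 0.00294). The pair differences were 0.87, 1.17 and 1.03. In rank GSTU16 moved from between the 70.7th and 72.8th percentile to between the 81.9th and 85.6th. Among all tested probe sets 86.8% had a lower log2 fold change, so the rise was moderate beside the rest of the array, where the called rises had a median of 1.13.

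GSTU26 (AT1G17190) was close to background in watered rosettes. Its normalized signal was 14.3, 20.8 and 38.4 in the watered replicates, the first of them below the floor, and 22, 64.9 and 102 under water deficit. The groups overlapped. In each group replicate 1 was lowest and replicate 3 highest, and each water deficit array exceeded the watered array of its own number. The difference of 2.14-fold (95% interval -0.16 to 2.36 on the log2 scale, limma adjusted p = 0.136) was computed with watered replicate 1 raised to the floor. With the replicate number as a block it passed the test (adjusted p = 0.0242). It also passed without water deficit replicate 1 (log2 difference 1.74, adjusted p = 0.0175) and over replicates 2 and 3 of each group (1.54, adjusted p = 0.0385). Without water deficit replicate 3 the log2 difference was 0.62 (adjusted p = 0.402), and without any of the other 4 arrays it did not pass either (adjusted p from 0.105 to 0.316).

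GSTL3 (AT5G02790), the lambda class gene, had similar levels in both groups. Its normalized signal was 978, 840 and 1010 when watered and 1240, 1130 and 965 under water deficit, and the groups overlapped. The log2 difference was 0.23 (95% interval -0.19 to 0.66, limma adjusted p = 0.332), an interval that holds for the quantile-normalized values. The difference was -0.01 with median scaling and 0.53 with no scaling, and neither was called. The median of all tested probe sets was 0.03 and 0.51 there. GSTL3 kept a place above the 95th percentile on every array, between 95.7 and 97.4.

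**Figure D2:**
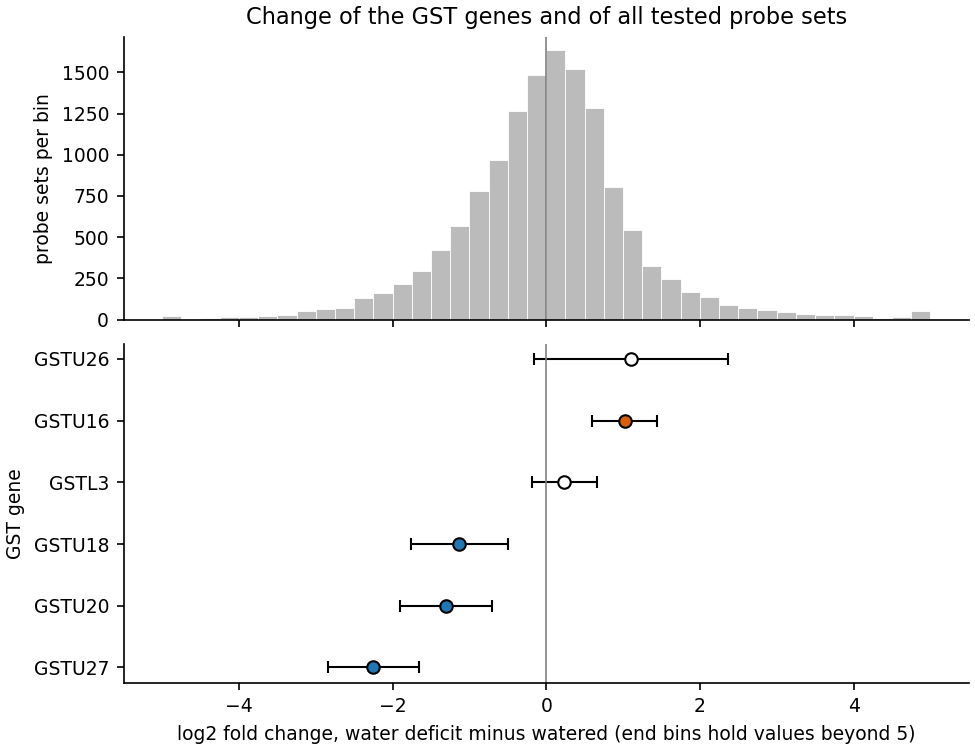
Upper panel, number of probe sets per 0.25 log2 units of fold change among all 13703 tested; lower panel, log2 fold change of each tested GST gene with its 95% interval from limma, orange for higher, blue for lower and white for not called. GSTU27, GSTU20 and GSTU18 lie left of 0 and GSTU16 right of it, while the intervals of GSTL3 and GSTU26 include 0.

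The genes were also compared with each other within arrays. The ratio of 2 genes within an array is free of any linear scaling, and it was computed from the deposited values for the 10 pairs among the 5 genes above the floor on every array. The groups did not overlap for 8 of the 10 ratios. For each of these 8 the exact permutation test gave p = 0.1 (two-sided, adjusted 0.125 over the 10), the smallest value that 3 against 3 arrays allow, so none could pass a threshold of 0.05. The 10 ratios reuse the same 5 genes, so they are not separate observations. No share was computed for ratios of other probe sets, and of all tested single probe sets 56.4% did not overlap. The log2 ratio of GSTU16 to GSTU27 was -1.38, -0.78 and -0.67 in the watered and 1.75, 2.78 and 2.51 in the water deficit replicates. The groups lay far apart, and the ratio rose 9.77-fold. This pair joins the gene called higher with the gene that fell most, so its ratio restates their changes and adds no separate support.

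The genes that fell were compared with each other in the same way. The log2 ratio of GSTU18 to GSTU27 was 1.17, 1.04 and 1.04 in the watered and 2.13, 2.26 and 2.07 in the water deficit replicates. This ratio had the smallest spread of the 10 in either group (SD 0.08 and 0.10, n = 3 each). It rose by 1.07 with no overlap of the groups (exact permutation p = 0.1, two-sided, adjusted 0.125). On these arrays GSTU27 lost more of its signal than GSTU18, a difference that this test could not call. The ratios of GSTU20 to GSTU27 and of GSTU18 to GSTU20 overlapped between the groups (changes of 0.71 and 0.36, exact permutation p = 0.2 and 0.5, two-sided, adjusted 0.222 and 0.5). Within the pairs of equal replicate number the first ratio changed by 0.64, 0.54 and 0.94 and the second by 0.32, 0.69 and 0.09, all in 1 direction. Relative to GSTL3, GSTU16 gained 2.09-fold and GSTU18, GSTU20 and GSTU27 lost 2.22-fold, 2.86-fold and 4.67-fold.

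**Figure D3:**
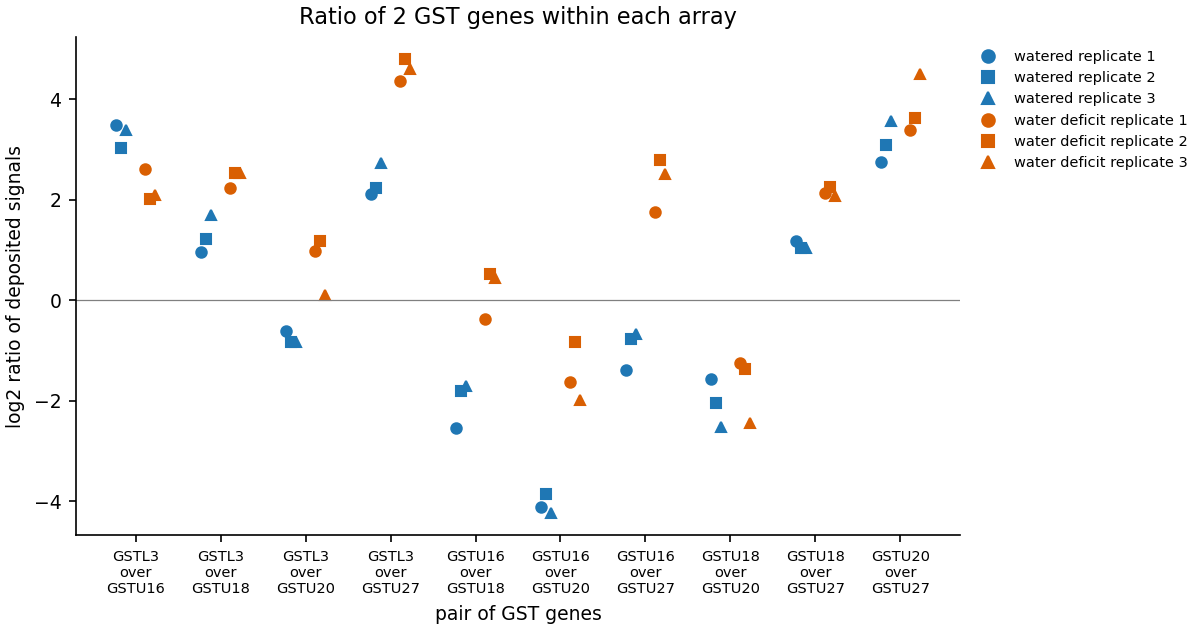
Log2 ratio of the deposited signals of 2 GST genes on each of 3 watered and 3 water deficit arrays, for the 10 pairs of genes above the floor on every array. The groups are apart in 8 pairs and overlap for GSTU18 over GSTU20 and GSTU20 over GSTU27.

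Of the 8 GST genes that were not tested, 5 were at the floor on every array: GSTF13 (AT3G62760), GSTU15 (AT1G59670), GSTU21 (AT1G78360), GSTU25 (AT1G17180) and GSTU28 (AT1G53680). Their signals give only an upper limit, the floor, and no fold change. GSTU21 was below 0 on all 6 arrays, from -7.68 to -0.819 normalized units. GSTU25, known with its neighbour GSTU24 for the detoxification of the explosive TNT, ran from -2.51 to 7.05. GSTU28 ran from 5.79 to 14.5, GSTF13 from -3.10 to 9.93 and GSTU15 from -9.08 to 4.45, with overlapping groups in each case.

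GSTF4, GSTU22 and GSTU23 rose above the floor on 1 or 2 arrays only. GSTF4 (AT1G02950) had normalized signals of 12.6, 31.3 and 21.8 in the watered replicates, above the floor in replicates 2 and 3, and of 11.9, 14.4 and 2.42 in the water deficit replicates. The groups overlapped. GSTU22 (AT1G78340) exceeded the floor on 1 array, at 22.6 in water deficit replicate 1, and was between 2.12 and 8.29 on the others. GSTU23 (AT1G78320) exceeded it at 24.7 in watered replicate 1. The other watered arrays of GSTU23 gave 12.5 and 9.11, and the water deficit arrays -1.36, 6.71 and 3.12, all of which were below every watered array. With values raised only to the 25th percentile of all probe sets (4.40 normalized units) GSTU23 was lower (log2 fold change -1.48, limma adjusted p = 0.0351), on signals that the Bacillus controls also reach.

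**Figure D4:**
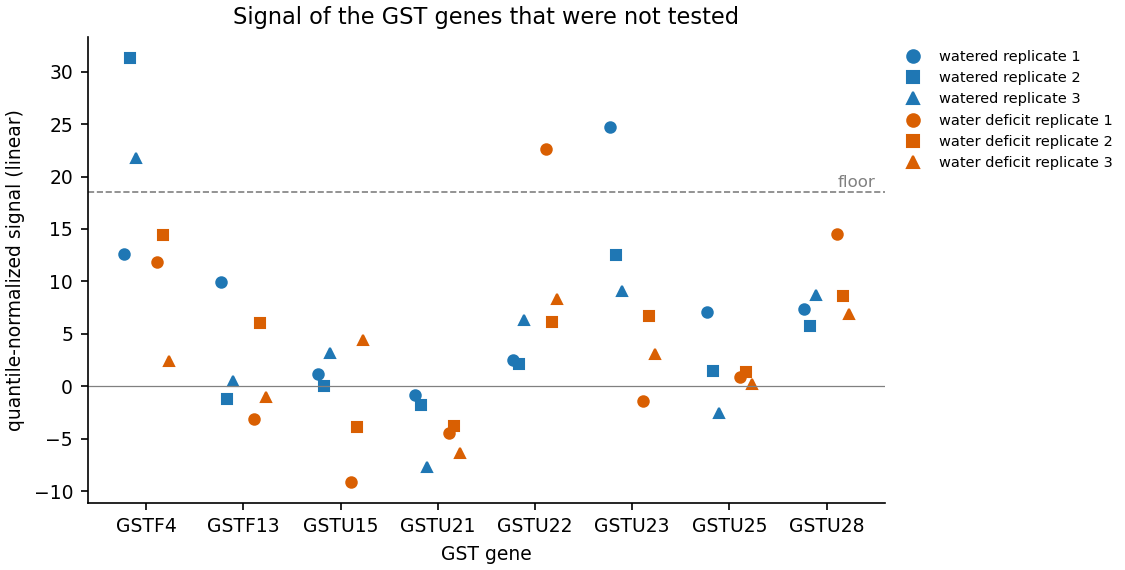
Quantile-normalized signal, on a linear scale, of the 8 GST genes that were not tested, on each of 3 watered and 3 water deficit arrays, with a dashed line at the floor of 18.5. Signals pass the floor on 2 watered arrays for GSTF4, on 1 watered array for GSTU23 and on 1 water deficit array for GSTU22.

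Neighbouring genes differed in their signals. GSTU23, GSTU22, GSTU21 and GSTU20 follow each other in this order on chromosome 1, with GSTU19, not analysed here, next to GSTU20. GSTU20 alone among the 4 was above the floor on every array. GSTU25 and GSTU26 are likewise adjacent on this chromosome, and GSTU25 was at the floor on all 6 arrays while GSTU26 passed it on 5. GSTU15 and GSTU16 lie 4 protein-coding genes apart, and GSTU15 was at the floor where GSTU16 was measured on every array. Of the 3 genes that fell, GSTU27 lies on chromosome 3, with no other GST gene nearby, and GSTU18 and GSTU20 lie in separate clusters on chromosome 1. All 14 probe sets carry the suffix that Affymetrix gives to probe sets designed for 1 transcript, as do 95.3% of all non-control probe sets. Cross-hybridisation between tandem copies was not tested. Nor was it tested whether the probe sets of different genes give equal signal for equal transcript, so these are differences of signal.

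Glutathione must be reduced again after oxidation, and glutaredoxins use it to reduce disulfides. In a list of 24 genes for this redox cycle 7 had a probe set and 5 were tested. Of these 4 rose and 1 was not called, and the median change of the 5 was 0.64 on the log2 scale. Among all tested probe sets 21.8% rose and 44.9% were called in either direction. GRXC1 (AT5G63030), a cytosolic glutaredoxin, gave normalized signals of 158, 190 and 194 in the watered and 361, 488 and 353 in the water deficit replicates. The groups were apart, and it rose 2.20-fold (limma adjusted p = 0.00281). The glutathione reductase gene GR1 (AT3G24170) went from 469, 342 and 278 to 795, 904 and 808, again with no overlap, and rose 2.35-fold (adjusted p = 0.00324). The plastid reductase GR2 and the glutaredoxin GRXC2 rose less, with log2 fold changes of 0.64 and 0.61 (adjusted p = 0.0307 and 0.0254). The call on GR2 was lost without watered replicate 2 or 3 (adjusted p = 0.106 and 0.0718) or without water deficit replicate 1 or 2 (0.0796 and 0.0904). That on GRXC2 was lost without watered replicate 1 or 2 (0.0541 and 0.0857) or without water deficit replicate 2 or 3 (0.071 and 0.0763). Both were also lost with median scaling (0.0854 and 0.138), with the 25th percentile as floor (0.0658 and 0.0564) and over replicates 2 and 3 (0.0726 and 0.0865), and GR2 without a filter (0.0657). Without scaling none of the 4 was called, with log2 fold changes from 0.89 to 1.69, and with the replicate block added to the unscaled values all 4 were (adjusted p from 0.000749 to 0.0075). The median of all tested probe sets was 0.51 in both fits, and 6.91% and 43.6% of them were called higher.

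GRX480, a glutaredoxin that binds TGA transcription factors, did not pass the test. Its normalized signal was 337, 104 and 102 in the watered and 91.2, 60.1 and 43.3 in the water deficit replicates, with watered replicate 1 far above the others and no overlap of the groups. The log2 difference was -1.30 (95% interval -2.43 to -0.17, limma adjusted p = 0.0612), and it passed with the replicate block (adjusted p = 0.00678) and over replicates 2 and 3 (adjusted p = 0.0272). Leaving out 1 array at a time never gave a call (adjusted p from 0.0554 to 0.205), and without watered replicate 1 the difference was -0.73. ROXY1 and ROXY2, glutaredoxins of flower development, were not tested. ROXY2 was at the floor on all 6 arrays, and ROXY1 passed it in water deficit replicate 1 at 21.5.

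Glutathione also needs sulfur, which plants reduce from sulfate. Of 28 listed genes of sulfate assimilation and cysteine synthesis 3 had a probe set, and they did not move together (median log2 fold change -0.63). ATP sulfurylase activates sulfate in the first step. Its gene APS4 (AT5G43780) gave normalized signals of 239, 272 and 411 in the watered and 834, 796 and 1140 in the water deficit replicates and rose 3.05-fold (limma adjusted p = 0.00172). APS3 (AT4G14680), another gene for this enzyme, went the other way, from 290, 304 and 232 to 68.3, 83 and 39.3, and fell 4.50-fold (adjusted p = 0.000752). The groups did not overlap for either gene. The sulfite reductase gene SIR fell 1.54-fold (adjusted p = 0.0251). The call on SIR was lost without watered replicate 1 (adjusted p = 0.0543) or 2 (0.0876) or water deficit replicate 2 (0.0849), over replicates 2 and 3 (0.0905) and with the 25th percentile as floor (0.0561). Its log2 fold change was -0.24 with no scaling, where the median of all tested probe sets was 0.51. The block did not restore the call there (adjusted p = 0.411) or with scaling on the controls (0.425). That on APS3 was lost with no scaling (-1.62, adjusted p = 0.149), while that on APS4 was kept. For glutathione synthesis and turnover, the vacuolar transporters of conjugates, tyrosine breakdown, the other transferase classes, TGA factors and the dehydration markers, no listed gene had a single-gene probe set here.

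The choice of scaling changed more calls on the GST genes than any other choice tried, and the calls were lost where the arrays were not brought to a common level. With the values as deposited, or scaled on the hybridisation controls, limma called none of the GST genes, although 2 were higher and 1 lower at an unadjusted p under 0.05 in each case. All 6 tested genes kept their direction there. The log2 fold changes were then 1.60 and 1.55 for GSTU16 and -0.62 and -0.66 for GSTU18, beside a median over all tested probe sets of 0.51 and 0.48. With the replicate block added to the unscaled values, GSTU16 and GSTU26 were called higher and GSTU18, GSTU20 and GSTU27 lower (adjusted p = 0.0328 for GSTU18). In that fit 43.6% of all tested probe sets were higher and 12.7% lower. With the block and scaling on the controls GSTU18 alone of these was not called (adjusted p = 0.0583), and 39.1% of all tested probe sets were higher and 12.6% lower.

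**Figure D5:**
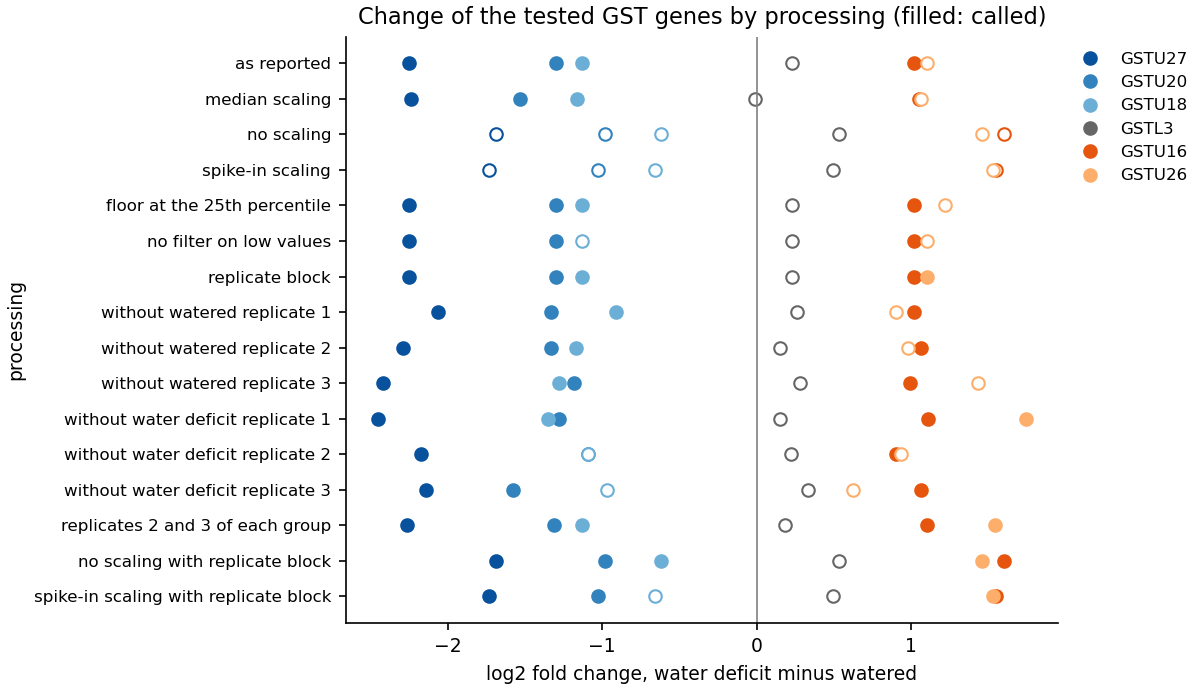
Log2 fold change of the 6 tested GST genes under each way of processing, with filled points for an adjusted p under 0.05 and open points otherwise. GSTU27, GSTU20 and GSTU18 stay left of 0 and GSTU16 and GSTU26 right of it in every row, and GSTL3 reaches -0.01 with median scaling; without water deficit replicate 2 the points of GSTU20 and GSTU18 coincide at -1.09, the former called and the latter not.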

How the data were processed

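Total RNA of 3 watered and 3 water deficit replicates was hybridised to Affymetrix ATH1 arrays. The authors read the scans with Affymetrix's own software, then pooled replicates in Rosetta Resolver for ratios under a proprietary error model, which was not rerun. The deposited values are background-subtracted intensity per array on a linear scale, not brought to a common level, and 13.2% to 17.8% of them were at or below 0. For the probe sets, a genome build is not given in the sources used.

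Intensities were quantile normalized over 6 arrays, raised to the floor and converted to log2. Of 22746 non-control probe sets 13703 (60.2%) were tested with limma 3.58.1 in R 4.3.3 (lmFit and eBayes, two-sided, group as the only term) and adjusted over all of them by the Benjamini-Hochberg method; those called had an adjusted p under 0.05. The fit was first tested on simulated data with independent noise on each array. That test did not cover deviations shared by arrays of equal replicate number. Deviations from the group means correlated at 0.291, 0.23 and 0.393 in pairs of equal replicate number, against -0.381 to 0.0285 in the others. Such deviations cancel within a group, so positive values at equal numbers push the others down, and part of this contrast is built in. The numbers in the titles were taken to pair the samples, and a fit with that block was run beside the main one, which has none. The number of arrays limits the precision.

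Gene names came from the platform annotation, updated through an NCBI gene table (TAIR10.1) used for names and gene order alone; 8730 probe sets (38.4%) had no gene there. Every GST gene was named, with values on each array for those called at a log2 fold change of 1 or more in size, and for others after their values were seen. Besides the GST genes, 9 pathway lists (140 genes) and 8 marker lists (50 genes) were written, of which 12 and 9 genes had a single-gene probe set. Besides the genes described in the results these were SAPX and TAPX, ascorbate peroxidases with log2 fold changes of 0.43 (adjusted p = 0.103) and -2.06 (0.000127), the guard cell gene FAMA with -0.38 (0.103) and the trichome gene TRY, which was above the floor on the 3 watered arrays only and passed the filter through them, so no test is given for it. The GST genes and lists were chosen with earlier results of these data known. The within-array ratios and the fits that join a scaling with the block were added after seeing the data.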

Additional observations from a re-analysis of the deposited data

How the results depend on the processing

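As reported, 1 GST gene was higher and 3 were lower, with a median log2 fold change of -0.45 over 6 tested genes. With no scaling and with spike-in scaling 0 were higher and 0 lower by limma (2 and 1 at an unadjusted p under 0.05 each), with medians of -0.55 and -0.52 over 7 genes. Of all tested probe sets 6.91% and 8.96% were higher and 2.48% and 3.50% lower there. With the replicate block, over replicates 2 and 3, and with the block added to unscaled or spike-in scaled values, 2 were higher, as GSTU26 was then called. In the same order 25.7%, 18.3%, 43.6% and 39.1% of all tested probe sets were higher in these fits. Over replicates 2 and 3 and with the 25th percentile as floor 4 were lower, the added genes being GSTF4 and GSTU23 in turn. There 19.3% and 16.4% of all tested probe sets were lower. The median was -1.13 over replicates 2 and 3, -0.55 for unscaled values with the block and -0.59 with median scaling. It was 0.00 over all 14 genes without a filter, of which 5 were at the floor on every array. Leaving out 1 array in turn gave 1 to 2 higher, 2 to 3 lower and medians from -0.53 to -0.32. From 15.1% to 20.3% of all tested probe sets were higher in these fits and from 16.9% to 21.9% lower. The sign of GSTL3 turned with median scaling (-0.01, adjusted p = 0.96). Without the filter on low values GSTU18 was not called (adjusted p = 0.0739). GSTU16, GSTU20 and GSTU27 kept their direction in every alternative and their calls in all but the 2 scalings without the block. The replicate block changed no other call on a GST gene than that of GSTU26. Each GST gene had 1 probe set, so averaging over probe sets altered no value. Where a call was lost with no scaling or with spike-in scaling, the cause was not tested. Signals under the floor limit what can be said of 8 of the 14 genes.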
